A study of Arabidopsis thaliana with 116 samples.

Results

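UDP-glycosyltransferases (UGTs) are enzymes that move a sugar from a UDP-sugar to a small acceptor molecule. In plants the acceptors include flavonoids, hydroxycinnamic acids, lignin precursors, the thiohydroximates from which glucosinolates are made, sterols and the hormones auxin, cytokinin and abscisic acid. The added sugar generally makes the acceptor more soluble and changes its activity, storage or transport, and many UGT genes lie side by side on the chromosome as copies of one another. The genes described here were all those with a symbol of UGT and a digit whose probe set was annotated to 1 nuclear gene. This gave 47 genes, each with 1 probe set, among 13367 probe sets of a single nuclear gene and 22746 probe sets tested in all. The gene table held 58 nuclear genes with such a symbol, and 3 further probe sets were shared by a UGT gene and another gene and were not used.

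Seeds still developing on the plant were sampled from 116 recombinant inbred Arabidopsis thaliana lines, of which 59 have names that start with Q and 57 names that start with R. All lines descend from crosses between the accessions Col-0 and C24 made in both directions, and the labels do not say which letter stands for which direction. Each line is a largely homozygous mosaic of both parents, and its seeds came from 6 pooled plants, with 8 siliques from each, harvested 10 to 11 days after flower opening under long days. One Affymetrix array per line gave the authors' RMA-normalised log2 signals. The spread between lines behind all p-values therefore includes variation within a line, which could not be estimated separately. Array medians were between 5.84 and 5.99 log2, and the number of arrays limits the precision. No batch was given in the sources used here. Of the seed markers, the vicilin-like gene PAP85 and the oleosin gene OLEO3 stayed at or above 12.94 log2 in every line, whereas the endosperm genes AGL62 and IKU2 averaged 3.24 and 4.35. These 2 endosperm genes lay below 5 log2 with SDs of 0.090 and 0.136. That neither passes at a bin therefore does not show that endosperm content is unchanged there. In these whole-seed extracts, fewer cells of a type and less RNA per cell cannot be told apart. A signal that differs between lines can also come from a sequence difference between Col-0 and C24 under the probes, and probe set values do not separate this from a difference in transcript level.

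Of the 47 UGT genes, 24 had a mean signal of at least 5 log2 and 23 lay below it, a share of 48.9% below against 42.8% of all nuclear genes. Means ranged from 3.21 to 9.60 log2, and the level of one probe set cannot be set against that of another. The 12 genes on chromosome 1, 12 on chromosome 2, 10 on chromosome 3, 5 on chromosome 4 and 8 on chromosome 5 were spread over families 71 to 88 of the UGT nomenclature. The spread between lines had a median SD of 0.177 log2 over the UGT genes and 0.162 over all nuclear genes. Among genes of at least 5 log2 the medians were 0.283 for UGT genes and 0.193 for nuclear genes, and below 5 log2 they were 0.126 and 0.131.

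The widest spread belonged to UGT87A2, whose product is known for an influence on flowering time, with an SD of 0.70 log2 and values from 4.27 over a median of 5.63 to 7.53. Next came UGT85A7 with an SD of 0.56, UGT88A1 with 0.51, the auxin glucosyltransferase gene UGT84B1 with 0.45 and UGT71B1 with 0.43. The remaining members of the 10 most variable were UGT74D1, UGT74B1, UGT73B1, UGT71C3 and UGT76C1, with SDs from 0.36 down to 0.31. At the other end, UGT76B1, UGT85A5, UGT78D3, UGT84B2 and UGT85A2 had SDs between 0.088 and 0.109, and all 5 were below 5 log2. In UGT73B4, a gene known from stress responses, 1 Q line stood alone at 5.78 log2 above a next highest line at 4.83. UGT88A1 also had a single highest line, an R line at 8.76 log2, followed by 8.00 and 7.82.

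**Figure D1:**
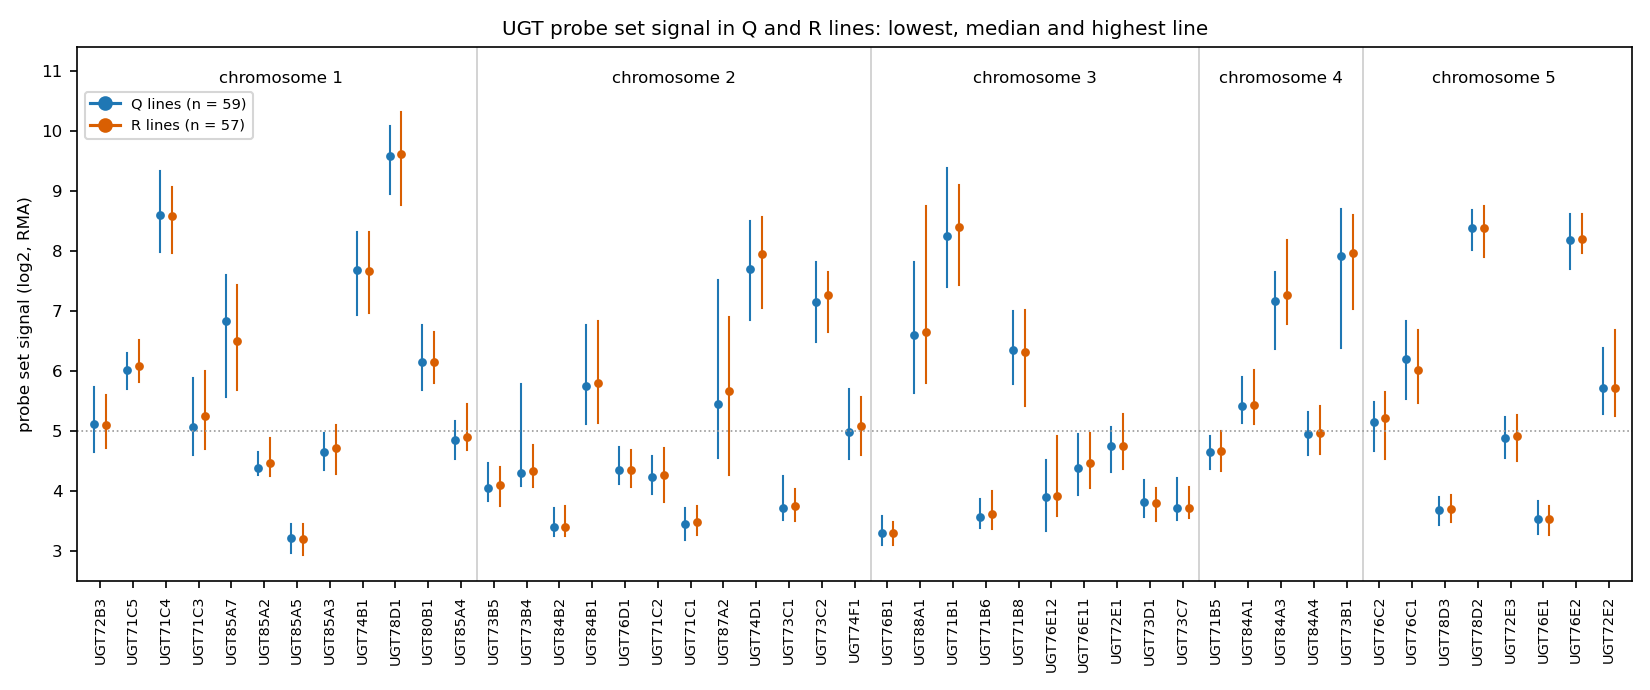
Probe set signal (log2, RMA) of the 47 UGT genes in gene order on the 5 chromosomes, with a blue mark for the 59 Q lines left of an orange mark for the 57 R lines. Points are medians, bars run from the lowest to the highest line, and the dotted line is at 5 log2. The ranges of Q and R lines overlap for every gene, and the longest bars belong to UGT87A2, UGT88A1 and UGT73B1.

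Q and R lines were compared to ask whether UGT signals followed the letter of the line. One UGT gene of 47 passed the threshold, UGT85A2, while 3.07% of all tested probe sets and 2.73% of nuclear genes did. The Q lines held 4.26, 4.39 and 4.66 log2 as lowest, median and highest value, and the R lines held 4.26, 4.47 and 4.89. The groups overlapped over most of their range, and the R lines reached higher. Q lines averaged 4.41 ± 0.096 log2 (SD, n = 59) and R lines 4.48 ± 0.11 (SD, n = 57). The difference, Q minus R, was -0.065 ± 0.020 (SE; limma, Benjamini-Hochberg adjusted p = 0.0454). The call was lost after quantile normalization of the values again (adjusted p = 0.0574) and with 10 principal components as covariates (adjusted p = 0.279).

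Another 6 genes had an unadjusted p under 0.05 and an adjusted p from 0.0764 to 0.22. UGT76C1, which encodes a cytokinin N-glucosyltransferase, averaged 6.18 log2 over Q lines and 6.03 over R lines. The other 5, UGT71C3, UGT74D1, UGT71C2, UGT85A4 and UGT84A3, had lower means in Q lines, with differences from -0.17 to -0.062. Over all 47 genes, 33 differences were negative and 14 positive, with a median of -0.024 log2 against -0.0042 for all probe sets. The largest differences in either direction, -0.17 for UGT71C3 and 0.14 for UGT76C1, did not pass.

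Allele-like splits were sought by fitting 2 normal components to each gene over the 116 lines. UGT85A7 was the single UGT gene of 47 that met the thresholds, which 0.928% of nuclear genes met. Its lines fell around 7.03 log2 (59 lines) and around 6.03 log2 (51 lines), with 6 lines between. The distance of 1.00 log2 was 4.18 times the SD within a mode, above the 4 required. UGT87A2 came next, with modes at 6.30 and 5.10 log2 that were 3.35 SD apart, and was not called.

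Such bimodal genes served as markers of the genotype of each line. The 124 bimodal nuclear genes lay in 90 bins of 200 consecutive genes, and the score of a bin runs from 0 to 1 as the mean probability that a line is in the upper mode of its genes, aligned to the gene that names the bin. Each UGT gene was fitted on every score with the letter as covariate and was never scored with itself. A score of 1 is the upper mode of the naming gene and not a parent, so the sign of a change names no parent. Of the 47 UGT genes, 23 (48.9%) were associated with a bin, beside 44.7% of all probe sets and 41.6% of nuclear genes. A local bin, within 3 bins of the gene, was the best for 12 of them (25.5%, with 21.1% of nuclear genes) and a distant bin for 11 (23.4%, with 20.5%). All 12 local genes had a mean of at least 5 log2, as did 7 of the 11 distant ones. Associated UGT genes were 19 of 24 at that level and 4 of 23 below it, and over all nuclear genes the shares were 58% and 19.7%, so associations were also fewer among dim genes in general. At the local bins the change had a median size of 0.48 log2 for UGT genes and 0.26 for nuclear genes, and at distant bins 0.19 and 0.16. When 10 principal components of the values were removed first, 8 of the 12 local genes and 0 of the 11 distant genes were still called, and the local calls lost were those of UGT85A7, UGT78D1, UGT88A1 and UGT76C2. Over all nuclear genes 1439 were called after this removal, 1317 of them locally, and 5561 without it, 2826 of them locally. The distant change of UGT73C2 was then -0.019.

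**Figure D2:**
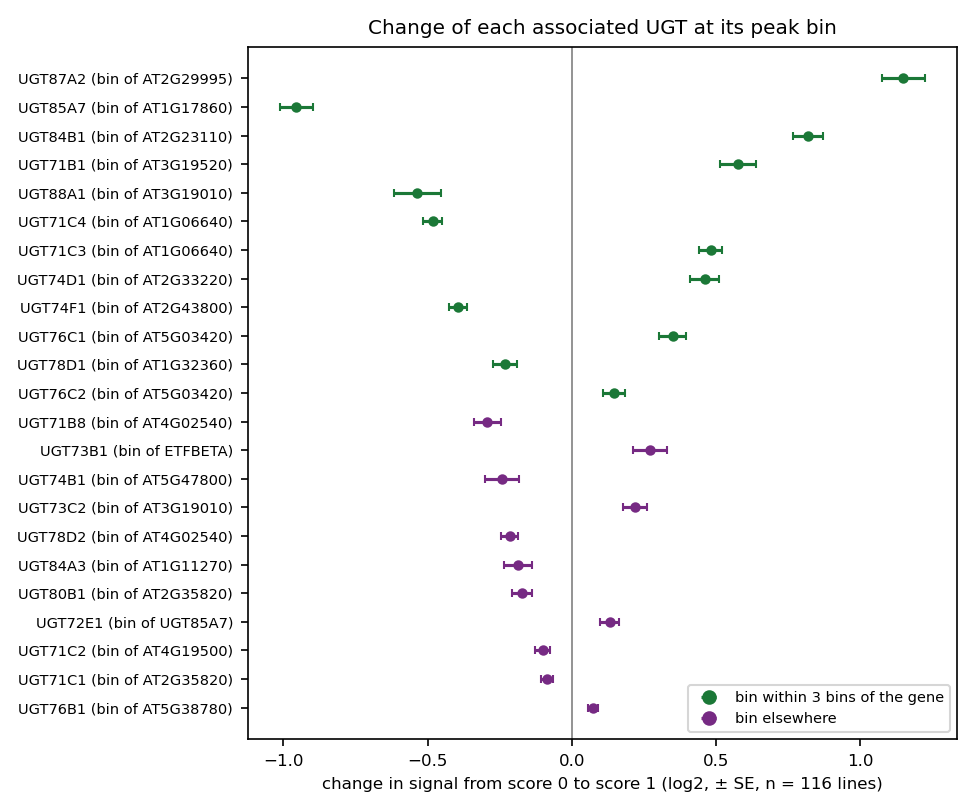
Change in signal from score 0 to score 1 (log2, ± SE, n = 116 lines) for the 23 associated UGT genes at their best bin, named after its marker gene. Green points are bins within 3 bins of the gene and purple points are bins elsewhere. UGT87A2, at 1.15, has the largest change, and no change at a distant bin is larger than 0.29 in size.

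UGT87A2 followed the bin of AT2G29995, which is its own bin. In the 57 lines with a score of at least 0.9 its lowest, median and highest values were 5.46, 6.28 and 7.53 log2, and in the 57 lines with a score of at most 0.1 they were 4.27, 5.05 and 6.13. Every line at the upper end exceeded the median of the lower end, although the ranges overlapped. The change was 1.15 ± 0.074 log2 (SE, n = 116; limma, adjusted p = 1.50e-26), a 2.22-fold difference in signal, and the score accounted for 67.7% of the variance. The 5 nuclear genes with a pattern most like it were all on chromosome 2, namely AT2G29995 (r = 0.81), AT2G29340 (-0.74), ENOC (-0.71), AT2G33220 (0.69) and AT2G30620 (0.69), over 116 lines that share their arrays.

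For UGT85A7 the best bin was that of AT1G17860, 3 bins away, since the bin of UGT85A7 itself could not be used. Lines at the upper end of that score held 5.57, 6.02 and 6.84 log2 (lowest, median and highest of 49 lines), and lines at the lower end held 5.83, 7.02 and 7.60 (65 lines). One line of the lower end fell below the median of the upper end. The change was -0.96 ± 0.057 log2 (limma, adjusted p = 4.12e-29), and the score accounted for 70.7% of the variance. On the other side of the gene the bin of AT1G23960, 1 bin away, accounted for 64.6%, and the share declined along the chromosome to 26.4% at AT1G32360, 6 bins away. The genes most like UGT85A7 were AT1G17860 (r = -0.84), AT1G22550 (0.82), GSTU26 (0.82), AT1G50290 (0.81) and AT1G17160 (-0.80), all on chromosome 1. GSTU26 encodes a glutathione S-transferase of the tau class.

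UGT85A7 heads a run of family 85 genes, with UGT85A2, UGT85A5 and UGT85A3 after it in gene order. At the bin of AT1G17860 these 3 neighbours changed by -0.029 ± 0.020, 0.020 ± 0.019 and -0.048 ± 0.028 log2, and none passed the threshold. All 3 lay below 5 log2. At that bin, neighbouring probe sets in this run thus had a change of -0.96 in 1 gene and changes within 0.05 of 0 in the others. At the bin named by UGT85A7, whose score is the split of UGT85A7 itself, UGT85A3 changed by 0.085 ± 0.028 log2. This passed a threshold adjusted over the probe sets of that bin. It did not pass the one that also counts all bins (limma, adjusted p = 0.38).

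**Figure D3:**
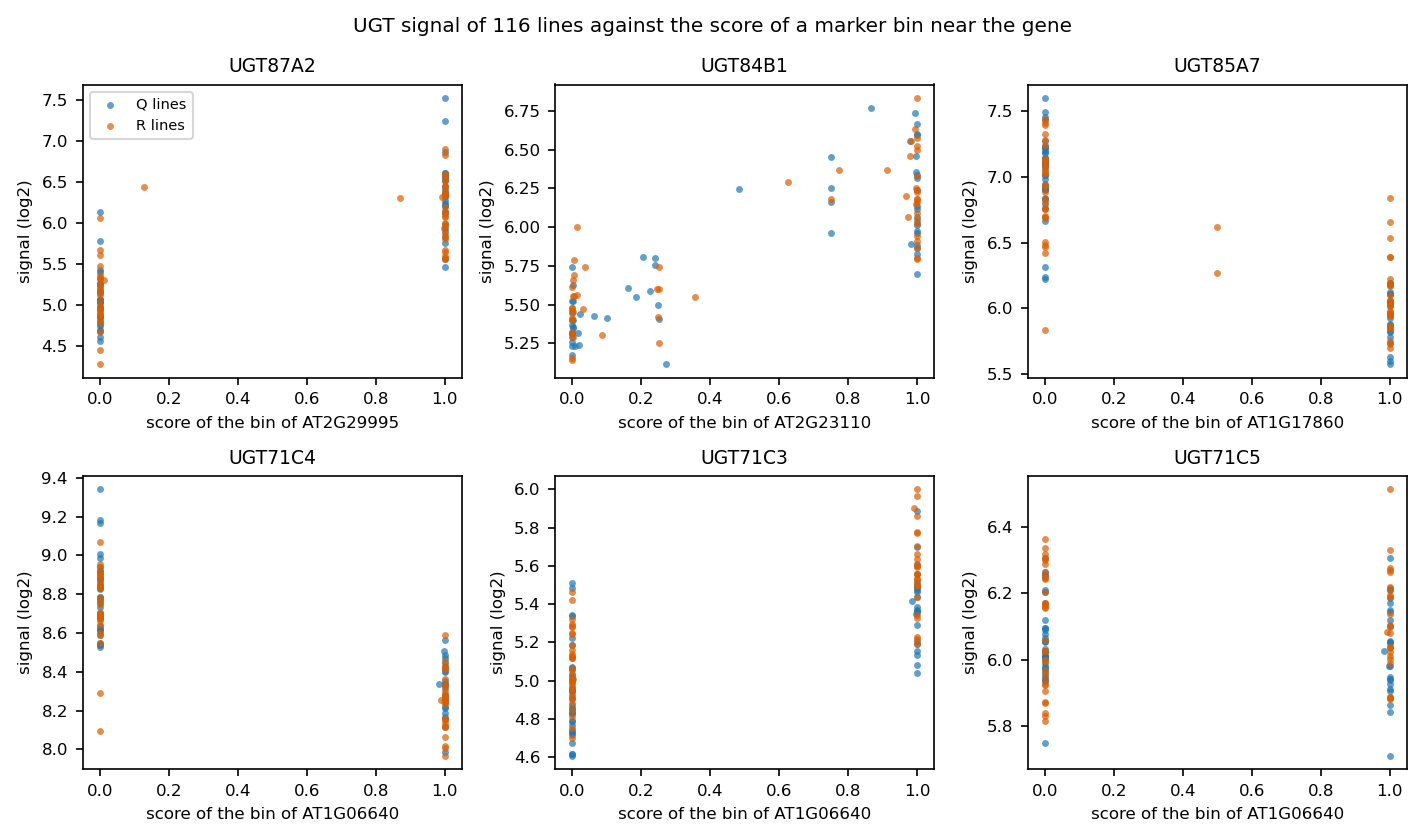
Signal (log2) of 6 UGT genes in 116 lines against the score of a marker bin on the same chromosome, with Q lines in blue and R lines in orange. UGT87A2, UGT84B1 and UGT71C3 are higher at score 1, UGT85A7 and UGT71C4 are lower, and UGT71C5 spans 5.71 to 6.51 with no shift.

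Among the 8 genes of the hormone list, 4 had a local bin, beside 21.1% of nuclear genes. UGT84B1, which acts on auxin, had the third largest local change of all UGT genes. It was at 5.70, 6.18 and 6.84 log2 (lowest, median and highest) in 48 lines at the upper end of the score of AT2G23110, its own bin, and at 5.14, 5.41 and 6.0 in 44 lines at the lower end. All lines of the upper end lay above the median of the lower end. The change was 0.82 ± 0.051 log2 (limma, adjusted p = 8.84e-28; 69.1% of the variance). Its direct neighbour UGT84B2, from the same branch of the family, was below 5 log2 and changed by -0.022 ± 0.021 at that bin.

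UGT74D1, another auxin glucosyltransferase gene, was at 7.40, 8.14 and 8.56 log2 in 56 lines at the upper end of the score of AT2G33220 and at 6.85, 7.68 and 8.35 in 57 lines at the lower end. The groups overlapped, and 6 lines of the upper end lay below the median of the lower end. The change was 0.46 ± 0.049 log2 (limma, adjusted p = 1.21e-12). UGT87A2 and UGT74D1 are on the same chromosome and correlated at r = 0.48 (rho = 0.47; permutation p = 1e-05 for both, the smallest that the permutations can give; r = 0.53 without the 2 lines farthest from the median of UGT87A2). With each gene's bin score and the letter removed, r was -0.029.

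The cytokinin N-glucosyltransferase genes UGT76C2 and UGT76C1 lie next to each other on chromosome 5, and both had their best bin at AT5G03420, 2 bins away. UGT76C1 was at 5.73, 6.33 and 6.78 log2 in 50 lines at the upper end and at 5.47, 5.93 and 6.84 in 65 lines at the lower end. The ranges overlapped almost fully, while 3 lines of the upper end lay below the median of the lower end. Its change of 0.35 ± 0.047 log2 was the larger of the pair (limma, adjusted p = 1.08e-08), with 0.15 ± 0.037 for UGT76C2 (limma, adjusted p = 0.034). The difference between the 3' and 5' signals of the array's Actin, GAPDH and Ubq controls, a measure of RNA integrity, averaged 0.90 log2 at the upper end of this score and 0.24 at the lower end. The Actin control, whose difference had an SD of 1.43 log2 beside 0.155 for GAPDH and 0.122 for Ubq, carried this, with a change of 1.85 at the bin of AT5G03420 against 0.025 for GAPDH and 0.025 for Ubq. With the mean of the 3 controls as a covariate UGT76C2 was no longer called, with the GAPDH control alone it was, and UGT76C1 was called with either.

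Among the remaining hormone genes, UGT71B8 was associated with a distant bin described further on. UGT71B6, whose enzyme glucosylates abscisic acid, UGT73C1 and UGT84B2 had no association. These 3 averaged between 3.42 and 3.76 log2 with SDs from 0.10 to 0.13.

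UGT74F1, which encodes a salicylic acid glucosyltransferase, was at 4.54, 4.87 and 5.21 log2 in 61 lines at the upper end of the score of AT2G43800, its own bin, and at 4.93, 5.25 and 5.71 in 53 lines at the lower end. No line of the lower end fell below the median of the upper end. The change was -0.39 ± 0.032 log2 (limma, adjusted p = 4.15e-19; 56.5% of the variance). In the flavonoid group UGT78D1, a flavonol rhamnosyltransferase gene, changed by -0.23 ± 0.041 at the bin of AT1G32360 (limma, adjusted p = 6.13e-05). Its lowest, median and highest values were 8.78, 9.49 and 10.01 log2 in 58 lines at the upper end and 9.36, 9.70 and 10.32 in 58 lines at the lower end, with wide overlap.

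The adjacent genes UGT71C4 and UGT71C3 changed in opposite directions with the same score, that of AT1G06640, 1 bin away. UGT71C4 was at 7.97, 8.28 and 8.59 log2 in 49 lines at the upper end and at 8.10, 8.75 and 9.34 in 67 lines at the lower end. In the same lines UGT71C3, whose enzyme glucosylates methyl salicylate, was at 5.04, 5.49 and 6.0 at the upper end and at 4.61, 4.99 and 5.51 at the lower end. One line of the lower end fell below the upper end's median for UGT71C4, and no upper line fell below the lower end's median for UGT71C3. The changes were -0.48 ± 0.032 and 0.48 ± 0.039 log2 (limma, adjusted p = 4.38e-25 and 3.45e-19). UGT71C5, which precedes them and acts on abscisic acid, changed by -0.0040 ± 0.028 at that bin. It was not in the hormone list and had no association with any bin.

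A further 2 local associations lay on chromosome 3 and belonged to genes for which the role lists held no entry. UGT71B1 was at 7.64, 8.70 and 9.39 log2 in 54 lines at the upper end of the score of AT3G19520 and at 7.44, 8.13 and 8.68 in 55 lines at the lower end. Upper lines were higher in the main, and 5 of them lay below the median of the lower end. The change was 0.58 ± 0.062 log2 (limma, adjusted p = 2.00e-12). UGT88A1 was at 5.63, 6.40 and 7.19 log2 in 60 lines at the upper end of the score of AT3G19010 and at 5.97, 6.85 and 8.76 in 52 lines at the lower end. Its change was -0.54 ± 0.082 (limma, adjusted p = 1.21e-06), and its share of variance with the score, 26.6%, was below that of UGT71B1, 42.4%.

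UGT88A1 had the largest correlation of the UGT genes with PORB and LHCB4.1, though not with AT1G11860, the other photosynthesis marker. The genes most like it were the chlorophyll-binding antenna gene LHCB4.2 (r = 0.78), AT2G42110 (0.75), ATLP-1 (0.75), AT3G08030 (0.75) and AT3G02120 (0.74) over the 116 lines. Without the 2 lines farthest from its median these were 0.74, 0.71, 0.70, 0.68 and 0.69. Of the tissue markers, it had r = 0.73 with PORB, an enzyme of chlorophyll synthesis, 0.71 with LHCB4.1, 0.42 with AT1G11860 (0.63 for UGT71C3 and -0.62 for UGT85A7) and -0.73 with LEA, a gene of late seed maturation. With the other embryo markers PAP85 and OLEO3 r was -0.29 and -0.016, and with the endosperm markers it was -0.055 for AGL62 and 0.0056 for IKU2. Values for the 4 seed coat markers are not given here. AT1G11860 lies on chromosome 1, as do UGT71C3 and UGT85A7, and its best bin, that of AT1G11270, is local. The correlations are descriptions over lines that share arrays and genotypes, and the part of tissue composition or seed stage in them was not tested.

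Among the distant bins, that of AT4G02540 on chromosome 4 accounted for the largest shares of variance, in UGT78D2 and UGT71B8. UGT71B8 lies on chromosome 3 and belongs to the abscisic acid group, and UGT78D2 lies on chromosome 5 and encodes a flavonoid glucosyltransferase. UGT71B8 was at 5.41, 6.14 and 6.78 log2 in 41 lines at the upper end of the score and at 5.78, 6.43 and 7.02 in 75 lines at the lower end. UGT78D2 was at 7.90, 8.22 and 8.52 in the same upper lines and at 8.07, 8.45 and 8.75 in the lower ones. Lines at the upper end were lower in both genes, with overlap. The changes were -0.29 ± 0.048 and -0.22 ± 0.029 log2 (limma, adjusted p = 9.25e-06 and 2.26e-08), and the score accounted for 24.2% and 32.5% of the variance.

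UGT71B8 and UGT78D2 were also the most strongly correlated pair among the 1081 pairs of UGT genes, with r = 0.62 and rho = 0.62 (permutation p = 1e-05 for both, the smallest that the permutations can give). The value was 0.60 without the 2 lines farthest from the median of UGT71B8, 0.68 within Q lines and 0.56 within R lines. After removal of the bin score and the letter r was 0.47. In this bin 17.3% of all probe sets passed a threshold adjusted over the probe sets of that bin, and of the 47 UGT genes 3 did, the third being UGT73C2 with a change of 0.15 ± 0.045. Seed markers moved with the same score. The embryo genes PAP85 and OLEO3 were lower and LEA did not pass (2 of 3), and their summed signal was 14.18 to 14.69 log2 at the upper end and 14.30 to 14.72 at the lower end. Of 4 seed coat markers ARA12 was higher, of 3 photosynthesis markers PORB was higher, and of 2 endosperm markers, both below 5 log2, none passed. PORB lies on chromosome 4, as AT4G02540 does. The part of these in the 2 UGT changes was not tested. UGT71B8 and UGT78D2 themselves correlated with PAP85 at r = 0.52 and 0.46. PAP85 was chosen after its values were seen, and r with the other markers is not given here.

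A pair with no role in the lists also moved together. UGT73C2, on chromosome 2, changed by 0.22 ± 0.041 log2 at the bin of AT3G19010 on chromosome 3 (limma, adjusted p = 0.000191), with 6.82, 7.30 and 7.81 log2 in 60 upper lines and 6.49, 7.10 and 7.78 in 52 lower lines. UGT73B1, on chromosome 4, changed by 0.27 ± 0.058 at the bin of ETFBETA on chromosome 5 (limma, adjusted p = 0.00242), with 7.57, 8.09 and 8.71 in 54 upper lines and 6.38, 7.82 and 8.51 in 62 lower lines. Upper lines were the higher ones in each case, and the ranges overlapped. The genes correlated with each other at r = 0.55 (rho = 0.51; permutation p = 1e-05 for both; r = 0.48 without the 2 farthest lines), and r was 0.49 after each gene's own score was removed. At the bin of AT3G19010 the seed coat genes DFR and ARA12 were also higher (2 of 4 seed coat markers, summed signal with a lowest and a median line of 11.12 and 11.56 log2 at the upper end and 11.01 and 11.30 at the lower end), and UGT73C2 had r = 0.58 with ARA12. At the bin of ETFBETA the embryo gene OLEO3 was lower (1 of 3; summed signal 14.18 to 14.71 log2 at the upper end and 14.30 to 14.72 at the lower end) and the seed coat gene DFR was higher (1 of 4; summed signal with a lowest and a median line of 11.06 and 11.52 log2 at the upper end and 11.01 and 11.44 at the lower end), and no photosynthesis or endosperm marker passed. DFR and OLEO3 are themselves genes of chromosome 5 with local bins, that of ETFBETA for DFR and that of AT5G51490 for OLEO3. For these genes a local effect and a shift in tissue cannot be told apart at ETFBETA. The part of the markers in the changes of UGT73C2 and UGT73B1 was not tested.

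UGT74B1, the S-glucosyltransferase gene of glucosinolate synthesis, was at 6.93, 7.54 and 8.13 log2 in 54 lines at the upper end of the score of AT5G47800 and at 6.98, 7.76 and 8.32 in 59 lines at the lower end. The ranges were nearly the same, and the change was -0.24 ± 0.059 (limma, adjusted p = 0.0205). At that bin PAP85 and OLEO3 were lower and LEA did not pass, PORB and LHCB4.1 of 3 photosynthesis markers were higher, and DFR of 4 seed coat markers was higher. Of these, OLEO3, DFR and LHCB4.1 are genes of chromosome 5, as is AT5G47800. OLEO3 and DFR had local bins on that chromosome, and the best bin of LHCB4.1 was that of AT1G61500 on chromosome 1. UGT80B1, a sterol glucosyltransferase gene known for its effect on the seed coat, was at 5.69, 6.06 and 6.44 log2 in 56 upper lines of the bin of AT2G35820 and at 5.85, 6.23 and 6.76 in 58 lower lines. Its change was -0.17 ± 0.034 (limma, adjusted p = 0.000494). At that bin LHCB4.1 and AT1G11860 of 3 photosynthesis markers were lower, and no embryo, endosperm or seed coat marker passed. The part of these markers in either change was not tested.

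Hydroxycinnamate and monolignol genes had small distant changes. UGT84A3, whose enzyme makes glucose esters of hydroxycinnamic acids, was at 6.37, 7.15 and 7.74 log2 in 63 upper lines of the bin of AT1G11270 and at 6.82, 7.34 and 8.19 in 53 lower lines. It changed by -0.19 ± 0.049 (limma, adjusted p = 0.0392), and its neighbours UGT84A1 and UGT84A4 changed by 0.025 ± 0.032 and 0.019 ± 0.031 there and did not pass. UGT84A3 had r = 0.65 with LHCB4.1 and 0.58 with PORB. These were chosen after their values were seen, and r with the other markers, AT1G11860 among them, is not given here. AT1G11860 was lower at the same bin, which is also its own local best bin (-0.90 ± 0.036 log2; limma, adjusted p = 1.6e-44). For AT1G11860 a local effect and a shift in tissue cannot be told apart there. UGT72E1, a coniferyl aldehyde glucosyltransferase gene, changed by 0.13 ± 0.032 log2 with the score of the bin named by UGT85A7 (limma, adjusted p = 0.0175), and UGT76B1, which acts on isoleucic and salicylic acid, by 0.074 ± 0.016 at the bin of AT5G38780 (adjusted p = 0.00481). UGT85A7 is the only marker of its bin, so that score is the split of the UGT85A7 signal on the same arrays. In that bin 17.85% of all probe sets passed a threshold adjusted over the probe sets of the bin. AT1G11860, a gene of the same chromosome, was lower there and no other tissue marker passed. This was 1 of 3 photosynthesis markers, with a summed signal of 10.38 to 11.72 log2 at the upper end and 10.83 to 12.13 at the lower end. At the bin of AT5G38780, OLEO3 of 3 embryo markers was higher, DFR of 4 seed coat markers and LHCB4.1 of 3 photosynthesis markers were lower, and no endosperm marker passed. OLEO3, DFR and LHCB4.1 lie on the same chromosome as AT5G38780. The part of the tissue markers in the UGT84A3, UGT72E1 and UGT76B1 changes was not tested. With the GAPDH control difference as a covariate UGT84A3, UGT72E1 and UGT71C2, described next, were no longer called (adjusted p = 0.0527, 0.0549 and 0.0508), and their signs were the same. UGT72E2, UGT72E3, UGT84A1 and UGT84A4 had no association. Of these UGT72E2 lay nearest the threshold (limma, adjusted p = 0.0552) and was called in 4 of 9 alternative fits.

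The last 2 distant associations were those of the adjacent genes UGT71C2 and UGT71C1 on chromosome 2, with different bins. UGT71C2 changed by -0.10 ± 0.026 log2 at AT4G19500 (limma, adjusted p = 0.0444) and UGT71C1 by -0.086 ± 0.021 at AT2G35820 (limma, adjusted p = 0.0166), which is on its own chromosome 4 bins away. Both lay below 5 log2, as did UGT72E1 and UGT76B1, and for these 4 genes the changes were all under 0.14 in size. The values of upper and lower lines overlapped over most of the range in each. At the bin of AT4G19500, DFR and ARA12 were higher (2 of 4 seed coat markers; summed signal 11.03 to 12.10 log2 at the upper end and 11.01 to 11.83 at the lower end), and no embryo, endosperm or photosynthesis marker passed. At that of AT2G35820 the markers were those given for UGT80B1, and their part in these changes was not tested.

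By role, associations covered 2 of 3 flavonoid genes, 4 of 8 hydroxycinnamate, benzoate and monolignol genes, 5 of 8 hormone genes, the glucosinolate gene and the sterol gene, and 0 of 2 stress genes. With so few genes in each, these counts are descriptions beside the 41.6% of all nuclear genes that were associated, 21.1% locally and 20.5% with a distant bin. UGT genes outside these lists were associated in 10 of 24 cases, 6 of them locally. By family, 3 of 9 genes of family 71 were local and 3 distant, 0 of 7 genes of family 73 were local and 2 distant, and 4 of 5 genes of family 85 had no association. Genes with no association included UGT76E2, at 8.21 ± 0.17 log2 (SD, n = 116), UGT71C5 at 6.07 ± 0.15, UGT72E2 at 5.71 ± 0.23 and UGT72B3 at 5.13 ± 0.17. The others were UGT84A1 at 5.45 ± 0.17 and 19 genes with means under 5 log2.

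Whether an association differed between Q and R lines was tested with an interaction of letter and score. Of 10169 associated probe sets, 0 passed after adjustment (limma; 556 at an unadjusted p under 0.05), which is 0% of those tested, and of the 23 UGT genes 0 passed and 3 had an unadjusted p under 0.05. UGT80B1 had the smallest p, with a change of -0.30 in Q lines and -0.043 in R lines (unadjusted p = 0.000112, adjusted p = 0.241). UGT71C2 changed by -0.038 in Q lines and -0.17 in R lines, and UGT85A7 by -1.08 in Q lines and -0.83 in R lines (adjusted p = 0.892 and 0.901). All 23 changes had the same sign within Q lines and within R lines. Each bin had been chosen over both sets of lines together, which favours the same sign.

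Neighbouring UGT genes were compared to see whether copies that lie together also vary together. There were 18 neighbouring pairs with at most 3 protein-coding genes between them, and 14 of these had none between. After adjustment over 1069015 relations of UGT genes with all probe sets, 4 of the 18 pairs were called and 3 of the 14, while 10.5% of all those relations were. The most negative was UGT71C4 with UGT71C3, at r = -0.61 and rho = -0.63 (permutation p = 1e-05 for both; r = -0.63 without the 2 farthest lines), and with the shared bin score and the letter removed r was 0.026. Positive pairs were weaker. UGT73B5 and UGT73B4, known from stress responses, had r = 0.30 and rho = 0.33 (permutation p = 0.00131 and 0.00044), and r was 0.29 without the 2 farthest lines. UGT76E12 and UGT76E11 had r = 0.30 and rho = 0.23 (permutation p = 0.00142 and 0.0134), and r dropped to 0.18 without the 2 farthest lines, so this relation rests in part on those lines. UGT85A7 and UGT85A2 had r = 0.23 and rho = 0.24 (permutation p = 0.0106 and 0.00847; r = 0.21 without the 2 farthest lines).

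**Figure D4:**
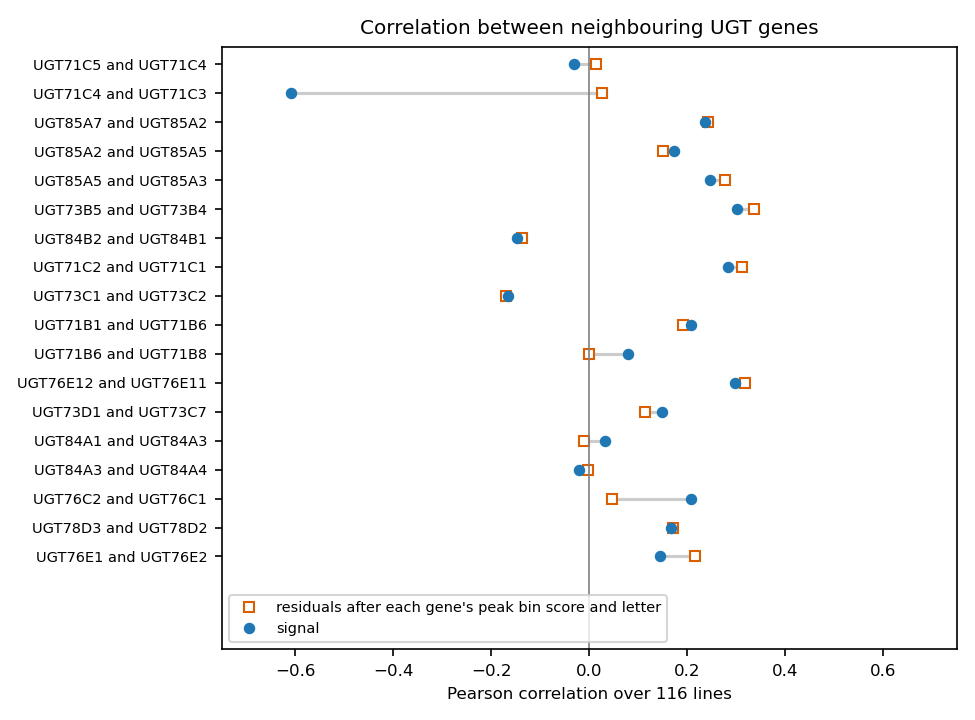
Pearson correlation over 116 lines for the 18 pairs of neighbouring UGT genes. Blue circles are the signals and open orange squares the residuals after each gene's best bin score and the letter were removed. UGT71C4 with UGT71C3 is at -0.61 for the signals and at 0.026 for the residuals, and in most other pairs the marks lie close together.

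The other 14 neighbouring pairs did not pass, with r between -0.17 and 0.28. They included UGT84B2 with UGT84B1 (r = -0.15), UGT73C1 with UGT73C2 (r = -0.17), UGT84A1 with UGT84A3 (r = 0.032) and UGT84A3 with UGT84A4 (r = -0.021). Over all 1081 pairs of UGT genes the median r was 0.047, and 14.2% of the pairs were called, 10.9% positive and 3.24% negative. All of these pairs share their arrays, and a shared chromosome gives linked genes a common genotype.

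Genes that make the acceptors and the sugar donors of these enzymes could be followed only in part. Named probe sets were at hand for 2 of 20 flavonoid genes, 2 of 17 phenylpropanoid and sinapate genes, 3 of 16 glucosinolate genes, 1 of 19 UDP-sugar genes and 0 of 8 sterol genes, and none of the 8 differed between Q and R lines. In the flavonoid list DFR, dihydroflavonol reductase, changed by 0.48 ± 0.068 log2 at the bin of ETFBETA (limma, adjusted p = 7.88e-08), its local bin and also the best bin of UGT73B1, and BAN had no association. HCT, which acts in lignin precursor synthesis, changed by -0.16 ± 0.040 at AT4G31570, and ALDH2C4, which makes sinapic and ferulic acid, by -0.13 ± 0.023 at AT5G47800, the bin of UGT74B1. The glucosinolate transporter gene GTR2 changed by 0.34 ± 0.061 at the bin named by UGT85A7, whose score is the split of UGT85A7 itself. The transporter gene GTR1 changed by 0.27 ± 0.032 at the local bin of AT3G48410, and the chain-elongation gene BCAT4 by 0.46 ± 0.12 at AT1G52810. Adjusted p-values of these were between 4.21e-11 and 0.0438. The UDP-sugar gene USP had no association.

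**Figure D5:**
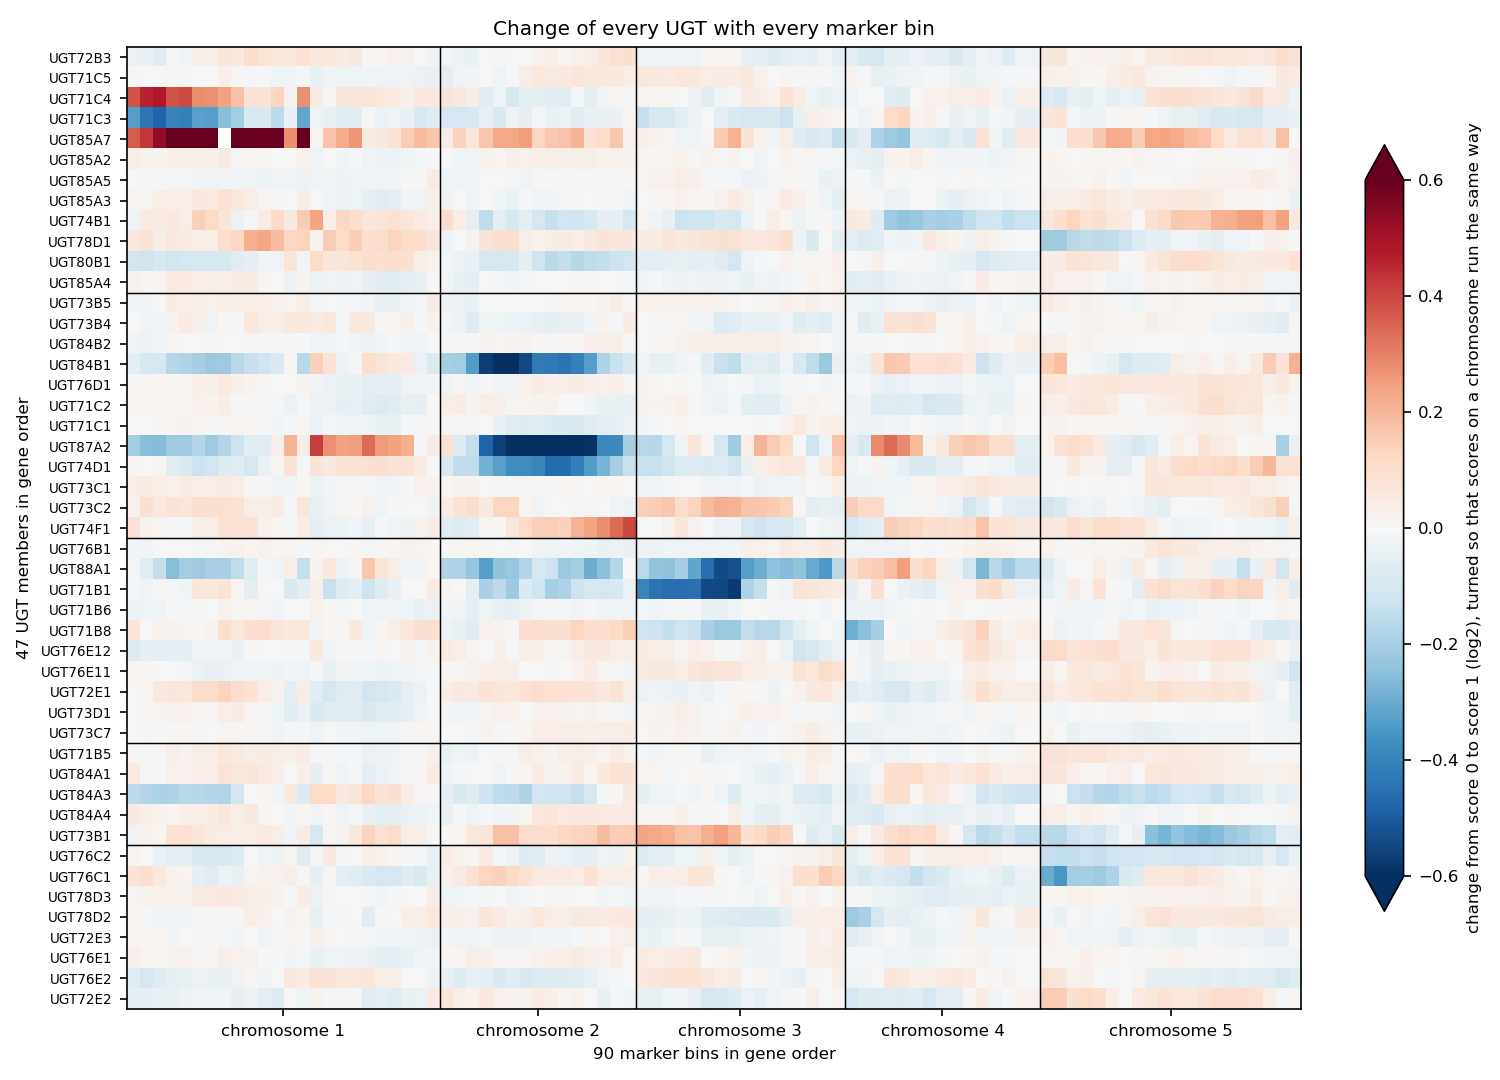
Change in signal from score 0 to score 1 (log2) of the 47 UGT genes (rows, in gene order) at the 90 marker bins (columns, in gene order), with black lines between chromosomes. Scores were turned to run the same way within a chromosome, colours saturate at 0.6 in size, and the blank cell is UGT85A7 at its own bin. Saturated cells are those of UGT85A7, UGT84B1 and UGT87A2, in blocks on their own chromosomes, and the strip of UGT71C4 has the opposite colour to that of UGT71C3.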

How the data were processed

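The authors deposited log2 probe set signals made with RMA, as named in the submitters' processing notes; the sources used here do not give its version, the genome build or batches. RMA sets all arrays to a common distribution and compresses dim probe sets. Labels grouped the lines by the first letter of their names. The table held 22810 probe sets, and 64 array controls were left out. Names came from the probe annotation, matched to RefSeq genes (TAIR10.1), which also gave the gene order; UGT genes under other symbols fall outside the symbol rule.

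Fits used limma 3.58.1 (lmFit, eBayes) in R 4.3.3 over all 22746 probe sets, with Benjamini-Hochberg adjustment and a threshold of 0.05. A gene was called bimodal where its modes were 4 SD or more and 1 log2 or more apart, each held a share of 0.2 or more, and BIC improved by 10 or more. The smallest p over the 90 bins was multiplied by 90 before the adjustment. Correlations used 100000 two-sided permutations. Python 3.11.15, numpy 2.4.6, pandas 2.3.3, scipy 1.17.1 and matplotlib 3.10.9 were used, and the fits were tested on simulated data. Alternatives covered dim probe sets, scaling, principal components, RNA quality, array weights, the letter, bin size, marker threshold and window.

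UGT genes were named where called in a fit, bimodal, among the 10 of largest or 5 of smallest SD, in a role list or next to another UGT gene, with the 5 genes most like the bimodal and the 3 most variable ones, and pathway genes where a fit called them. Other genes, the tissue marker correlations, UGT73C2 with UGT73B1 and the GAPDH control were chosen after their values were seen. The members and lists were chosen with earlier results of these data known.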

Additional observations from a re-analysis of the deposited data

How the results depend on the processing

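The count of 1 UGT gene between Q and R lines was 0 with a filter at a mean of 5 log2, which removes UGT85A2 from the test, 0 after quantile normalization again and 0 with 10 principal components as covariates. It was 1 with array medians subtracted, array weights and either RNA quality covariate. The count of 23 associated UGT genes was 8 with 10 principal components removed, and between 20 and 24 under the other alternatives. The local count of 12 was between 8 and 13. Of the genes with no association in the main fit, UGT72E2 was called in 4 of 9 alternatives and UGT78D3 in 3 of 8. The 1 bimodal gene became 2 with modes at least 3 SD apart, UGT87A2 being the other, and 0 at 5 SD. The interaction count was 0 in each fit. Of the 23 single changes, UGT73C2 reversed to -0.019 with 10 principal components removed and 14 others lost their call there. Lost calls elsewhere were UGT72E1 and UGT76C2 with the mean of the 3 control differences, UGT71C2, UGT72E1 and UGT84A3 with the GAPDH difference alone, an alternative chosen after seeing the data, UGT76C2 without the letter, and UGT76B1 and UGT72E1 with markers at least 5 SD apart. The cause was not tested. No paired analysis was possible because the numbers in the line names identify lines and carry no pairing between Q and R. Dim probe sets, 23 of the 47, limit what a change there can show, since RMA compresses them.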

Other observations

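The marker gene AT1G50290 stood out among the genes most like UGT85A7. In the gene order it lies 2962 places from UGT85A7, 14 bins away, yet its score accounted for 44.7% of the variance of UGT85A7. The nearest bins on either side of it, those of AT1G48580 and AT1G52810, accounted for 6.11% and 0.0199%. In the map of changes it appears as a lone column on chromosome 1 in which UGT71C4, UGT71C3 and UGT85A7 all have the colours of the bins near their own genes. Those 3 UGT genes were also the ones called in that bin at a threshold adjusted within the bin, of 47, while 5.48% of all probe sets were. The cause was not tested.

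The Actin control of the array had a 3' minus 5' difference that followed genotype. The score of AT5G15360 on chromosome 5 accounted for 51.4% of its variance over the 116 lines, with a change of -2.17 log2. For the GAPDH control the largest share over all bins was 16.6%, at AT1G17860, the best bin of UGT85A7. It was 14.8% at the bin named by UGT85A7 and 10.4% at AT1G11270. For the Ubq control the largest share was 9.43%, at GSTU26. The mean of the 3 controls averaged 0.70 log2 at the upper end and 0.40 at the lower end of AT1G17860. At AT5G47800 these were 0.67 and 0.40. UGT85A7 and UGT74B1 were called with either quality covariate.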
